A study of Mus musculus with 8 samples.

Results

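Most of the genes described here encode nuclear subunits of oxidative phosphorylation (OXPHOS), with a few assembly factors that share their names. Atp5s and Atp5sl share the name but were classed as of other function. Both are counted among the OXPHOS genes but lie outside the complex groups below. The genes were taken as every gene whose symbol begins with Nduf, Uqcr, Cox4 to Cox8 or Atp5 and that lay above its own floor in at least 2 of the 8 libraries. The symbol pattern matched 87 genes, and 85 of the 18051 genes tested met the rule; Atp5l2 and Cox8c lay at their floor in every library. Of the 85, 83 lay above the floor in all 8 libraries, and the exceptions were Cox8b, with 2 libraries above it, and Ndufa4l2, with 3. Apart from that floor, the rule used no measured value.

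OXPHOS couples electron transfer to ATP production in the inner mitochondrial membrane. Complex I oxidises NADH, complex III passes electrons from ubiquinol to cytochrome c, complex IV reduces oxygen, and the proton gradient built by these complexes drives complex V, the ATP synthase. The nuclear genes of this system are transcribed in nearly every cell type, whereas a few complex IV genes have isoforms restricted to muscle, lung or testis. Leukaemic progenitors are known for relying on mitochondrial respiration.

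The samples were c-kit+ acute myeloid leukaemia (AML) cells from the bone marrow of C57BL/6 mice, with Moz in every sample title, profiled by RNA sequencing in 4 groups of 2 libraries. The first group was labelled as lacking both Ezh1 and Ezh2 (Ezh1-/- Ezh2-/-, tamoxifen) and is called Ezh1-null tamoxifen. The second was Ezh1-/- with Ezh2 labelled +/+ (corn oil), called Ezh1-null oil. The third was labelled Ezh1+/+ Ezh2-/- (tamoxifen), called Ezh1-present tamoxifen, and the last was Ezh1+/+ with Ezh2 labelled +/+ (corn oil), called Ezh1-present oil. The series text gives Ezh2 in the oil groups as flox/flox. Tamoxifen was given at 10 mg/kg/day in corn oil for 5 doses, and cells were taken 7 days after treatment. The labels do not state what drives the recombinase, whether each genotype is 1 leukaemia, or whether replicates are separate animals, and p-values therefore describe only how much these libraries spread. Every tamoxifen library is also labelled Ezh2-/-, so the drug and the labelled deletion cannot be told apart. Ezh1 and Ezh2 are the alternative methyltransferases of Polycomb repressive complex 2.

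Every value is a log2 normalized value minus the gene's median over the 8 libraries. A value of 0 is therefore that gene's own middle, levels of different genes cannot be compared, and the sequencing depth is unknown. Ezh1 lay at -1.61 and -1.55 in Ezh1-null tamoxifen, -1.75 and -1.94 in Ezh1-null oil, 1.55 and 1.63 in Ezh1-present tamoxifen and 1.71 and 1.66 in Ezh1-present oil libraries, which matched the labels. Ezh2 lay at -0.53 and -0.56, -0.12 and -0.03, 0.09 and 0.03, and 0.25 and 0.23, with groups ordered as for Ezh1. Its log2 change with tamoxifen was -0.47 ± 0.08 in Ezh1-null cells (adjusted p = 0.0554) and -0.18 ± 0.08 in Ezh1-present cells (adjusted p = 0.293), so it was called in neither genotype, and its values in the Ezh1-present libraries labelled Ezh2-/- lay above those in the Ezh1-null libraries labelled Ezh2+/+. All 9 AML progenitor markers lay above the floor in every library, and so did all 7 erythroid and all 9 neutrophil markers measured, and 8 of 11 T and NK cell markers. Marker medians differed widely between libraries. Those of AML progenitors were 0.31 and 0.45 in Ezh1-null tamoxifen, 0.53 and 0.64 in Ezh1-null oil, -0.30 and -0.37 in Ezh1-present tamoxifen and -0.74 and -0.56 in Ezh1-present oil libraries. With Ezh1 loss, 6 of the 9 were called higher in oil (median change 1.18) and 6 higher and 1 lower in tamoxifen. Of all genes, 12.5% were called higher in oil, and 6.77% higher and 5.44% lower in tamoxifen. Flt3 went against the other progenitor markers, with changes of -1.70 in oil and -2.22 in tamoxifen. Marker medians of mature neutrophils were 1.75 and 0.35 in Ezh1-null tamoxifen, 0.76 and 1.44 in Ezh1-null oil, -1.95 and -0.32 in Ezh1-present tamoxifen and -3.53 and -2.89 in Ezh1-present oil libraries. Erythroid medians were 0.11 and -0.01, 0.01 and 1.43, -0.45 and 1.80, and -1.98 and -1.21 in that order. T and NK cell medians were 0.28 and 0.40, -0.64 and -0.82, 1.01 and 2.32, and -2.20 and -1.74. Those of mast cells and basophils were 0.81 and 2.24, 0.37 and 1.85, -1.50 and -0.71, and -4.12 and -4.89, and those of B cells were 2.32 and 0.55, 3.22 and 2.55, -1.27 and -0.96, and -0.73 and -1.28. The part of these shifts in the OXPHOS values was not tested, and in these bulk samples fewer cells of a type and less RNA per cell cannot be told apart.

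Promoters are shown first, for a pair of genes whose transcripts differed between the Ezh1 genotypes in oil, in opposite directions (Ndufv2 lower and Ndufb3 higher in Ezh1-null cells), and for a pair that passed no test and whose windows hold motifs long associated with respiratory genes (Cox6a1 and Uqcr11). Each window runs from 250 bases before to 50 bases after the gene start, 5′ to 3′, from RefSeq on build GRCm38.p6. RefSeq's starts of Ndufv2 and Ndufb3 differ from the deposited gene coordinates printed below, and these windows lie outside those coordinates. Capitals mark the NRF1 core GCGCATGC and the ETS/GABP core CCGGAAG on either strand; in Cox6a1 the NRF1 core was found on both strands and its matches overlap.
Ndufv2 chr17:66101510-66101809 (- strand): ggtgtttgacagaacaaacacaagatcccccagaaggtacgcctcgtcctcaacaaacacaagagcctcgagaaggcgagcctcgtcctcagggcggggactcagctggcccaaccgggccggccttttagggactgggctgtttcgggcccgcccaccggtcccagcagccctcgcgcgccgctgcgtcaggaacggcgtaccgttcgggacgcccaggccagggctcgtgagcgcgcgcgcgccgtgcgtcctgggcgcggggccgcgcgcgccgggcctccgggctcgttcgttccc
Ndufb3 chr1:58586147-58586446 (+ strand): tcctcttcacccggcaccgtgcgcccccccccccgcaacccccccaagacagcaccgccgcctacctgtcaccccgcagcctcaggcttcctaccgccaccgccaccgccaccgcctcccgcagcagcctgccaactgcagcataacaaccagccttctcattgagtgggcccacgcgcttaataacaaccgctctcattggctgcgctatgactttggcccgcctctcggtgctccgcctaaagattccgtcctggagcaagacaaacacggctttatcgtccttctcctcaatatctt
Cox6a1 chr5:115348909-115349208 (- strand): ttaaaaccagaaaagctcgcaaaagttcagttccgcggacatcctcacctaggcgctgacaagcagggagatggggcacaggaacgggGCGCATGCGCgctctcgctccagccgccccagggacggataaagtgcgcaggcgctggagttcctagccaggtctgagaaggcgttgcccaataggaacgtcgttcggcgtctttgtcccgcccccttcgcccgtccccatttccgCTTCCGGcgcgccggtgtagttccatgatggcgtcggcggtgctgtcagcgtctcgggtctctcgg
Uqcr11 chr10:80406772-80407071 (- strand): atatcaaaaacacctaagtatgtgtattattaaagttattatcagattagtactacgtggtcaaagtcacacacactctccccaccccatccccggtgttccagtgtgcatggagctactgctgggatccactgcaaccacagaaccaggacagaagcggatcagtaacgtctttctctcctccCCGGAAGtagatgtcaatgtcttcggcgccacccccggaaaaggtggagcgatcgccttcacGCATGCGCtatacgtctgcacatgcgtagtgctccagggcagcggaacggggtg

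A RefSeq window was found for 71 of the 85 genes. Of these, 67 held at least 10 CpG dinucleotides, against 10061 of the 13648 other genes tested that had a window. A gene with several windows was counted once, by its highest CpG count and by a motif in any of them. The number of windows per gene was not matched between the sets. The NRF1 core, searched on both strands, was found for 11 of these 71 genes (15.5%), against 4.87% of the 13648 others. For the ETS/GABP core the count was 15 genes (21.1%), against 16.2%. The YY1 core AAGATGGCG was found for 8 genes (11.3%), against 2.7%. At least 1 of the 3 motifs was found for 29 of the 71 genes (40.8%), against 21.9% of the other genes. Of the 6 genes called below, 4 had a window (Ndufv2, Ndufb3, Ndufa13 and Ndufaf3), and none of these 4 held any of the 3. A match describes letters in the window and not binding, and these shares carry no test.

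OXPHOS genes varied little between libraries. The difference between the highest and the lowest library of a gene had a median of 0.363 log2 units over the 83 genes above the floor throughout, against 0.858 over all 15517 such genes. It lay under 0.5 for 61 of the 83 (73.5%), against 26.9% of all such genes. Levels were removed from these values, so the comparison is not with genes of like level. With tamoxifen in Ezh1-present cells, log2 changes of mitochondrial ribosome genes had similar quartiles (0.09 and 0.20, against 0.07 and 0.20 for the 83). Of the 85 genes, 4 had a range of at least 1. These were the tissue-restricted isoforms Cox4i2, Cox6a2 and Cox7a1, and Ndufa4l2, a paralogue of Ndufa4 with only 3 libraries above the floor. Among the steadiest was Uqcrh, the hinge subunit of complex III, with a range of 0.19.

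The library medians of the 83 genes were -0.03 and -0.00 in Ezh1-null tamoxifen, -0.04 and 0.01 in Ezh1-null oil, 0.13 and 0.04 in Ezh1-present tamoxifen and -0.12 and 0.04 in Ezh1-present oil. Ezh1-present oil replicate 1 was the lowest library for 42 of the 83 genes, and Ezh1-present tamoxifen replicate 1 was the highest for 35. The same was not counted over all genes, so these counts cannot be called particular to OXPHOS genes. Over all genes above the floor throughout, no library median was further than 0.00308 from 0. The oil replicates of Ezh1-present cells stood furthest apart, and their median SD was 0.108, against 0.0438 for Ezh1-null tamoxifen, 0.0738 for Ezh1-null oil and 0.0671 for Ezh1-present tamoxifen.

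**Figure D1:**
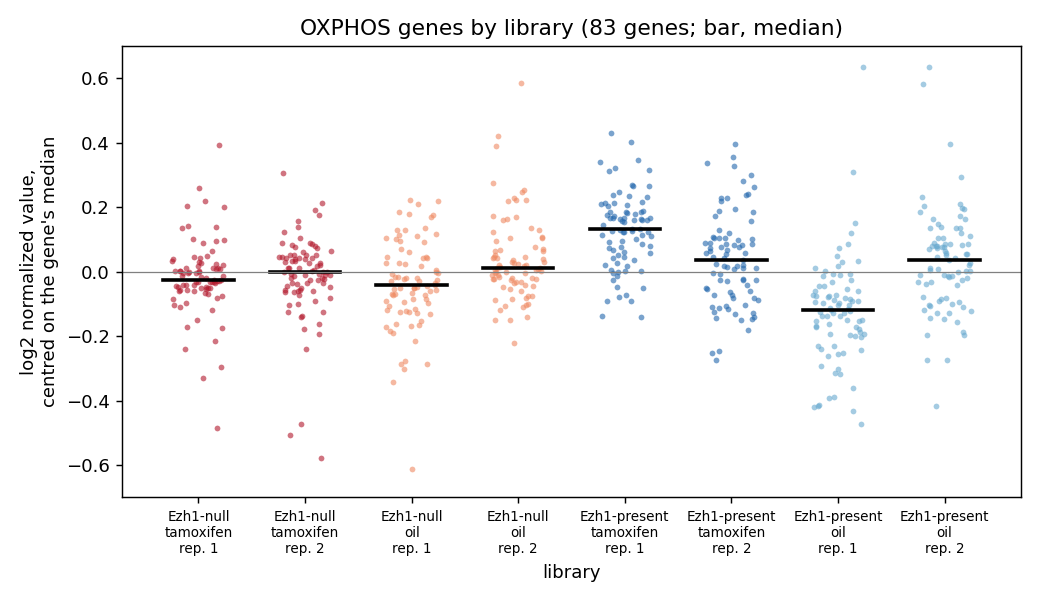
Values of 83 OXPHOS genes (points) in each of the 8 libraries, as log2 normalized value centred on the gene's median; bars mark library medians. The median is highest in Ezh1-present tamoxifen replicate 1 (0.13) and lowest in Ezh1-present oil replicate 1 (-0.12); 5 of 664 values, from 3 genes, lie outside the axis limits of ±0.7.

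The first comparison asked how these genes differed with tamoxifen, labelled as Ezh2 loss, where Ezh1 was present. Most OXPHOS genes lay slightly higher in tamoxifen than in oil libraries, but none was called. Of the 85, 76 had a log2 change above 0, with a median of 0.14, against a median of 0.01 over all genes. With limma and Benjamini-Hochberg adjustment over all genes, 0 of 85 passed an adjusted p of 0.05, while 163 of all 18051 genes (0.903%) did, 0.637% higher and 0.266% lower; at an unadjusted p of 0.05 the counts were 7 of 85 and 20.6% of all genes. The 2 groups did not overlap for 46 of the 85, close to the 53.8% of all genes. No OXPHOS gene reached a log2 change of 1 either way, against 15.2% of all genes. By direction, 42 lay wholly higher (28.5% of all genes did) and 4 wholly lower (25.3%).

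The higher values ran through the complexes. All 8 complex III genes had a positive change (median 0.18), from 0.06 for Uqcrh to 0.31 for Uqcr11, a small subunit. All 5 genes of the catalytic head of ATP synthase did so (median 0.12), as did all 10 of its stalk and membrane genes (median 0.19), among which Atp5k, a subunit at the dimer interface, had 0.31. In complex I, 6 of 7 core genes, 29 of 31 accessory genes and 5 of 6 assembly factor genes were above 0, with medians of 0.10, 0.15 and 0.21. Complex IV was less even, with 12 of 16 above 0 (median 0.10). The accessory group holds Ndufa4 and Ndufa4l2 by symbol, although NDUFA4 is known as a subunit of complex IV.

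The size of this tilt depended on the replicates that stood apart. Without Ezh1-present oil replicate 1 the median was 0.07, with 66 of 85 above 0, and without Ezh1-present tamoxifen replicate 1 it was 0.09, with 63 above 0; without Ezh1-present oil replicate 2 it was 0.21. The genes of the mitochondrial ribosome, which translates the subunits encoded in mitochondrial DNA, had a median change of 0.15, with 71 of 75 above 0. Without Ezh1-present oil replicate 1 that median was 0.07, with 56 above 0.

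The gene with the smallest p in this comparison lay against the tilt. Ndufv2, a core iron-sulfur subunit of the NADH-oxidising arm of complex I, lay at 0.05 and 0.06 in Ezh1-present tamoxifen libraries, against 0.63 and 0.58 in Ezh1-present oil libraries. The groups did not overlap, yet the change of -0.55 ± 0.10 had an adjusted p of 0.0827. Ndufa5, an accessory subunit of the complex I arm that faces the matrix, lay at 0.35 and 0.34 in tamoxifen, against -0.12 and -0.01 in oil libraries (0.41 ± 0.09, adjusted p = 0.111). Ndufaf1, an assembly factor for the membrane arm, lay at 0.00 and 0.33, against -0.32 and -0.42 (0.53 ± 0.14, adjusted p = 0.130). The 95% interval of the change, unadjusted, lay within 1.5-fold either way for 69 of the 85 genes and within 2-fold for 81, with a median half-width of 0.28 log2 units.

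In Ezh1-null cells, tamoxifen left the OXPHOS genes evenly split. The median change was -0.00, with 42 genes above 0 and 43 below, and 0 of 85 were called, against 614 of all genes (3.4%; 3.1% higher and 0.299% lower); 6 of 85 and 17.9% of all genes had an unadjusted p under 0.05. Groups did not overlap for 36 genes (49.2% of all genes did not), 15 wholly higher (24.5%) and 21 wholly lower (24.8%). The complex medians lay between -0.09 for the assembly factors and 0.07 for the ATP synthase stalk and membrane genes. The 95% interval lay within 1.5-fold for 78 of the 85.

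The largest differences in this comparison were in isoforms: the 2 genes with a log2 change of at least 1 either way (15.3% of all genes) were Cox6a2 and, by a fitted value that rests on libraries at the floor, Ndufa4l2. Cox6a2, the heart and skeletal muscle isoform of subunit VIa, lay at -0.49 and 0.08 in Ezh1-null tamoxifen, against 1.84 and 0.58 in Ezh1-null oil libraries (-1.41 ± 0.45, adjusted p = 0.195). Much of that gap came from 1 oil replicate: without Ezh1-null oil replicate 1 the change was -0.79. The authors' deposited table of genes with at least 2-fold change lists Cox6a2 in Ezh1-null cells at a signed fold change of -2.67 and, of the 85 genes, holds only Cox6a2 and Ndufa4l2. Cox4i2 lay at 0.14 and -0.58 in tamoxifen, against -1.08 and -1.13 in oil libraries, without overlap (0.88 ± 0.24, adjusted p = 0.136).

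The interaction asked whether the tamoxifen change differed between Ezh1-null and Ezh1-present cells. It subtracts the Ezh1-present change (median 0.14) from the Ezh1-null change (median -0.00), so it is not independent of those comparisons. Among the 85 genes, 15 had a difference above 0 and 70 below (median -0.14), and 0 were called, against 86 of all genes (0.476%; 0.321% higher and 0.155% lower); at an unadjusted p of 0.05 the counts were 5 of 85 and 14.9%. All 8 complex III genes and all 6 assembly factor genes lay below 0, with medians of -0.20 and -0.31, whereas complex IV was split 8 and 8. Mitochondrial ribosome genes had a median of -0.16, with 63 of 75 below 0. The median over the 85 moved to -0.07 without Ezh1-present oil replicate 1 and to -0.22 without Ezh1-present oil replicate 2. Ndufa5 had the smallest p (-0.54 ± 0.13, adjusted p = 0.183), followed by Cox4i2 (1.24 ± 0.33, adjusted p = 0.211). Cox4i2 and Cox6a2 were the 2 genes that reached 1 log2 unit, against 20.3% of all genes. With groups of 2, the interval of this difference was wider, with a median half-width of 0.40, and lay within 1.5-fold for 44 genes.

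**Figure D2:**
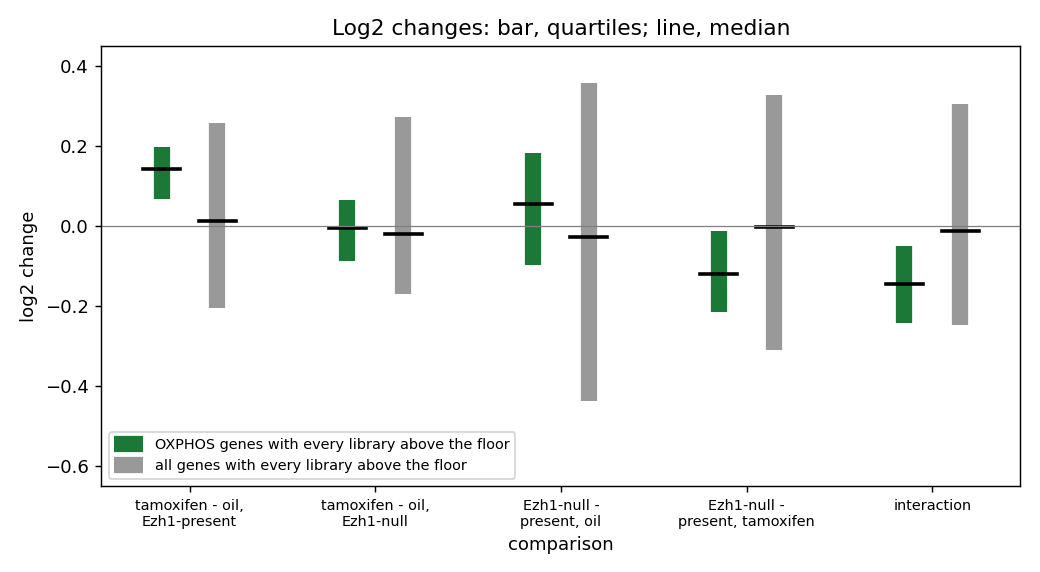
Log2 change in each of the 5 comparisons for the 83 OXPHOS genes above the floor in every library (green) and for all 15517 such genes (grey); bars run from the lower to the upper quartile and black lines mark medians. The OXPHOS bars are narrower than those of all genes throughout, and their medians run from 0.14 (tamoxifen minus oil, Ezh1-present) to -0.15 (interaction).

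The comparison of Ezh1-null with Ezh1-present cells in oil held nearly all the calls. In it 6 of 85 OXPHOS genes were called (7.06%), against 24.9% of all genes: Ndufa13, Ndufb3 and Ndufaf3 rose and Ndufv2, Cox6c and Cox4i2 fell with Ezh1 loss. Of all genes, 12.5% were called higher and 12.4% lower. A log2 change of at least 1 was found for 3 of the 85, Cox4i2, Cox6a2 and Cox7a1, against 24.6% of all genes. An unadjusted p under 0.05 was found for 13 of 85, against 39.8% of all genes. Groups did not overlap for 43 genes, against 65.8% of all genes. By direction, 27 lay wholly higher (31.0% of all genes did) and 16 wholly lower (34.7%). Against a median of -0.04 over all genes, the median change of the 85 was 0.05, with 46 genes above 0 and 39 below. That median had no stable direction: it was -0.02, with 38 above 0, without Ezh1-present oil replicate 1, -0.01 without Ezh1-null oil replicate 2, and 0.11, with 62 above 0, without Ezh1-present oil replicate 2.

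Ndufv2 (mm10 chromosome 17, 66078795 to 66101491) lay at -0.05 and -0.14 in Ezh1-null oil, against 0.63 and 0.58 in Ezh1-present oil libraries. Ezh1-null tamoxifen libraries lay at -0.33 and -0.14 and Ezh1-present tamoxifen libraries at 0.05 and 0.06, so the Ezh1-present oil libraries stood above the other 6. Ndufv2 fell with Ezh1 loss in oil by 0.70 on the log2 scale (SE 0.10, adjusted p = 0.00987 in limma), and its change in tamoxifen was -0.29 ± 0.10 (adjusted p = 0.124).

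Cox6c (chromosome 15, 35931976 to 35938246) encodes a small subunit of complex IV found in all tissues. It lay at -0.15 and -0.18 in Ezh1-null tamoxifen, -0.34 and -0.22 in Ezh1-null oil, 0.40 and 0.24 in Ezh1-present tamoxifen and 0.15 and 0.29 in Ezh1-present oil libraries. All 4 Ezh1-null libraries lay below all 4 Ezh1-present libraries. Cox6c fell with Ezh1 loss in oil (-0.50 ± 0.11, adjusted p = 0.0273) and in tamoxifen (-0.48 ± 0.11, adjusted p = 0.0479). The call in oil was lost in 9 of 16 alternatives (largest adjusted p in limma 0.107), and the call in tamoxifen was lost whichever library was left out, with adjusted p between 0.0733 and 0.158. Its exons overlap Vps13b on the opposite strand in GENCODE vM21, and its transcripts share at least 95% identity over at least 100 bases with 5 other genes, including the processed pseudogene Cox6c2. The labels do not state whether counting used strand, so reads of such partners cannot be told apart; Vps13b itself changed by -0.12 ± 0.09 in oil (adjusted p = 0.394).

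Cox4i2 (chromosome 2, 152754173 to 152765037), the lung-enriched and oxygen-responsive isoform of subunit IV, had the largest fall of the 85. Its values were -1.08 and -1.13 in Ezh1-null oil, against 0.31 and 0.39 in Ezh1-present oil libraries, with close replicates in both groups (-1.46 ± 0.24, adjusted p = 0.0132). After tamoxifen the genotypes overlapped, at 0.14 and -0.58 in Ezh1-null, against 0.03 and -0.03 in Ezh1-present libraries (-0.22 ± 0.24).

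Ndufa13 (chromosome 8, 69894182 to 69902558), an accessory subunit also known as GRIM-19, lay at 0.22 and 0.25 in Ezh1-null oil, against -0.43 and -0.27 in Ezh1-present oil libraries. After tamoxifen it lay at 0.14 and 0.21 in Ezh1-null, against -0.14 and -0.14 in Ezh1-present libraries, so the genotypes did not overlap under either treatment. It rose with Ezh1 loss in oil (0.59 ± 0.09, adjusted p = 0.0123), while in tamoxifen the change was 0.32 ± 0.09 (adjusted p = 0.0839). Exons of Tssk6 overlap it on the opposite strand, and Tssk6 rose in the same comparison (0.68 ± 0.16, adjusted p = 0.0333 in limma).

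Ndufb3 (chromosome 1, 58586599 to 58595948), an accessory subunit of the membrane arm of complex I, lay at 0.10 and 0.28 in Ezh1-null oil, against -0.39 and -0.27 in Ezh1-present oil libraries (0.52 ± 0.10, adjusted p = 0.0203). In tamoxifen it lay at 0.10 and 0.07 in Ezh1-null, against -0.07 and -0.08 in Ezh1-present libraries. Ndufaf3 (chromosome 9, 108565865 to 108567342), an early complex I assembly factor, lay at 0.22 and 0.42 in Ezh1-null oil, against -0.25 and -0.10 in Ezh1-present oil libraries (0.50 ± 0.12, adjusted p = 0.0387). The Ndufaf3 call was lost whichever library was left out, with adjusted p in limma between 0.0587 and 0.153. Its tamoxifen values were 0.22 and 0.05 in Ezh1-null, against -0.05 and -0.11 in Ezh1-present libraries. Neither gene overlapped between genotypes under either treatment. Ndufaf3 overlaps Impdh2 on the opposite strand, and Impdh2 changed by -0.12 ± 0.12 (adjusted p = 0.532). Ndufb3 shares at least 95% identity over at least 100 bases with 1 other gene, the processed pseudogene Gm45930.

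**Figure D3:**
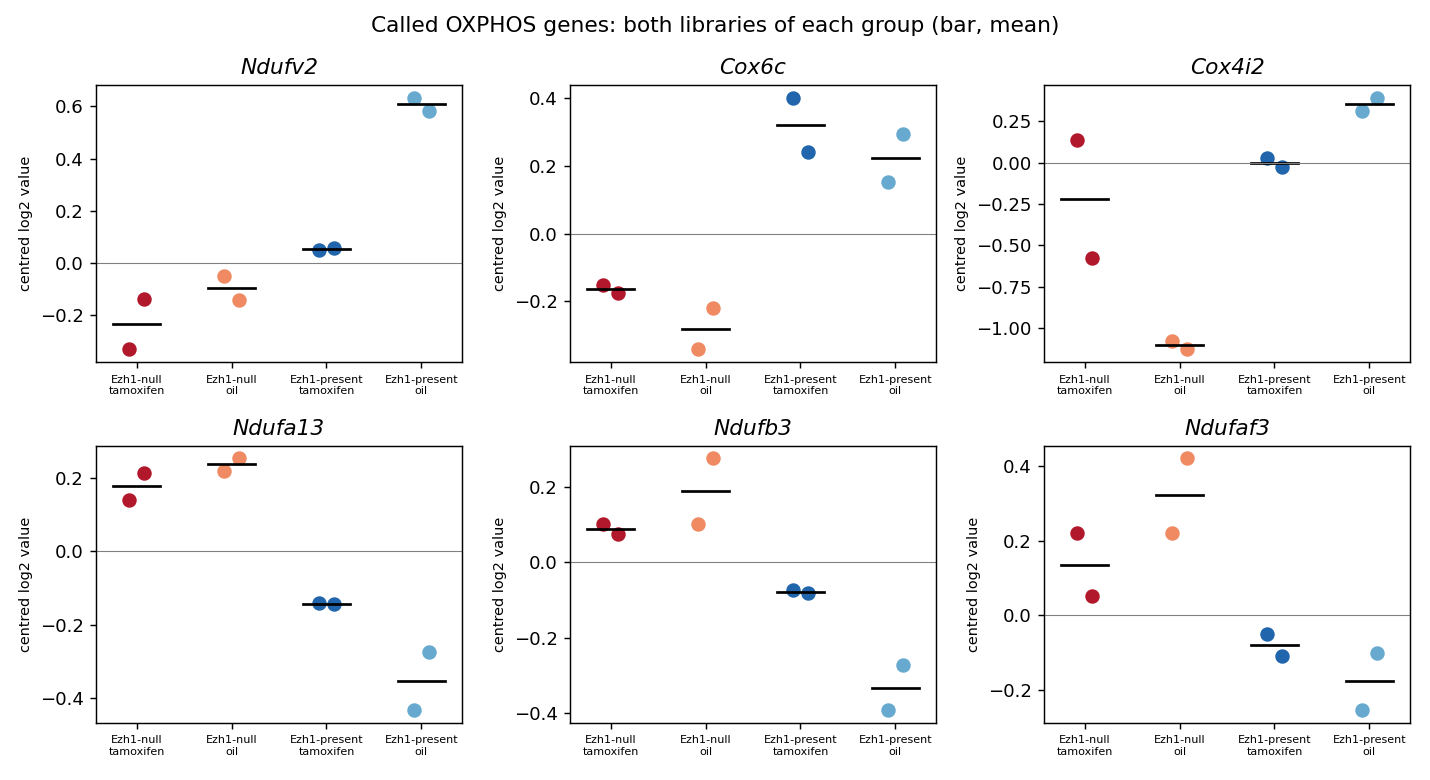
The 6 OXPHOS genes called between Ezh1-null and Ezh1-present cells in oil: centred log2 value in both libraries of each group (points) with the group mean (bar); vertical scales differ between panels. Ndufv2, Cox6c and Cox4i2 are lower, and Ndufa13, Ndufb3 and Ndufaf3 higher, in Ezh1-null oil than in Ezh1-present oil libraries.

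These 6 calls rested on groups of 2 libraries. Without Ezh1-present oil replicate 1 none of the 85 was called, as against 1707 of all genes. Without Ezh1-null oil replicate 2 none of the 6 was called and Cox6a2 was, beside 1925 of all genes. Every change of the 6 kept its direction in all of the alternatives run. By complex, the medians in oil were 0.14 for complex III, with 7 of 8 genes above 0, and -0.09 for complex IV, with 5 of 16 above 0. Ndufv3, Ndufa1 and Atp5s came next in order of p, with changes of 0.46, 0.38 and 0.50 and adjusted p in limma of 0.0579, 0.0583 and 0.0631.

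After tamoxifen, with both genotypes labelled Ezh2-/-, most OXPHOS genes lay slightly lower in the Ezh1-null libraries. The median change was -0.12, with 19 genes above 0 and 65 below, against -0.00 over all genes. Related genes lay lower too: 64 of 75 mitochondrial ribosome genes (median -0.18) and 15 of 18 genes of the tricarboxylic acid cycle and pyruvate dehydrogenase (median -0.10). Cox6c was the 1 gene called (1.18% of the 85, against 12.2% of all genes, 6.77% higher and 5.44% lower). No OXPHOS gene reached 1 log2 unit, against 18.7% of all genes, and 11 of 85 had an unadjusted p under 0.05, against 32.3% of all genes. Groups did not overlap for 50 genes (62.5% of all genes did not), of which 41 were wholly lower (31.8%) and 9 wholly higher (30.7%). All 5 catalytic head genes of ATP synthase and 9 of its 10 stalk and membrane genes lay lower, with medians of -0.12 and -0.16. Without Ezh1-present tamoxifen replicate 1 the median over the 85 was -0.06, with 30 above 0, and without Ezh1-present tamoxifen replicate 2 it was -0.17. This comparison and that of tamoxifen with oil in Ezh1-present cells share the Ezh1-present tamoxifen libraries.

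Isoform pairs showed where the wide ranges lay. Cox4i1, the general partner of Cox4i2, lay between -0.12 and 0.19 over the 8 libraries, with a change of -0.19 ± 0.11 in oil (Ezh1-null minus Ezh1-present). Cox6a2 lay at 1.84 and 0.58 in Ezh1-null oil, against -0.19 and -0.08 in Ezh1-present oil libraries; the change of 1.35 ± 0.45 was the largest rise of that comparison and was not called (adjusted p = 0.0869). Its general partner Cox6a1 lay between -0.22 and 0.17. Exons of Itgad overlap Cox6a2 on the opposite strand.

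Cox7a1, the isoform of contractile muscle, lay at -1.11 and -0.51 in Ezh1-null tamoxifen, -0.61 and 0.25 in Ezh1-null oil, 0.43 and -0.25 in Ezh1-present tamoxifen and 1.07 and 0.63 in Ezh1-present oil libraries. Both Ezh1-null groups lay below their Ezh1-present counterparts without overlap, although replicates within a group were far apart. The changes with Ezh1 loss were -1.04 ± 0.42 in oil (adjusted p = 0.130) and -0.90 ± 0.42 in tamoxifen. Cox7a2 lay between -0.14 and 0.14, and Cox7a2l, a supercomplex factor related to it, between -0.18 and 0.04.

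Cox6b2, the testis isoform of subunit VIb, lay at 0.39 and 0.31 in Ezh1-null tamoxifen, 0.12 and 0.02 in Ezh1-null oil, -0.08 and -0.02 in Ezh1-present tamoxifen and -0.24 and -0.13 in Ezh1-present oil libraries. All 4 Ezh1-null libraries lay above all 4 Ezh1-present libraries, and the change in tamoxifen was 0.40 ± 0.09 (adjusted p = 0.0529). Cox6b1 lay between -0.19 and 0.17. Of 5 testis markers none was above the floor in every library, and 2 were at the floor in all 8; of 5 muscle markers 3 were above the floor throughout. The medians of these 3 were 0.00 and -2.43 in Ezh1-null tamoxifen, -0.12 and -0.25 in Ezh1-null oil, 0.48 and -0.41 in Ezh1-present tamoxifen and 2.68 and 0.64 in Ezh1-present oil libraries, where Cox7a1 was also highest. All 3 changed below 0 with Ezh1 loss in oil (median -2.12, none called). Cox6a2, also a muscle isoform, went the other way, at 1.84 and 0.58 in Ezh1-null oil, against -0.19 and -0.08 in Ezh1-present oil libraries. The part of muscle transcripts in the Cox7a1 and Cox6a2 values was not tested.

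Ndufa4l2, a paralogue of Ndufa4 known as a hypoxia-induced gene, lay at the floor in 5 libraries. The others read 4.25 times the floor in Ezh1-null tamoxifen replicate 1, 8.80 times in Ezh1-present tamoxifen replicate 2 and 3.56 times in Ezh1-present oil replicate 1. No group had both libraries above the floor, so no fold is given. Exons of Shmt2 overlap Ndufa4l2 on the opposite strand. Cox8b was above the floor only in Ezh1-null oil replicate 2 (1.08 times) and Ezh1-present oil replicate 1 (1.78 times), while Cox8a lay between -0.29 and 0.11. The 3 genes for the c subunit of the ATP synthase rotor, Atp5g1, Atp5g2 and Atp5g3, lay between -0.29 and 0.31, -0.15 and 0.27, and -0.06 and 0.27, and none was called.

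**Figure D4:**
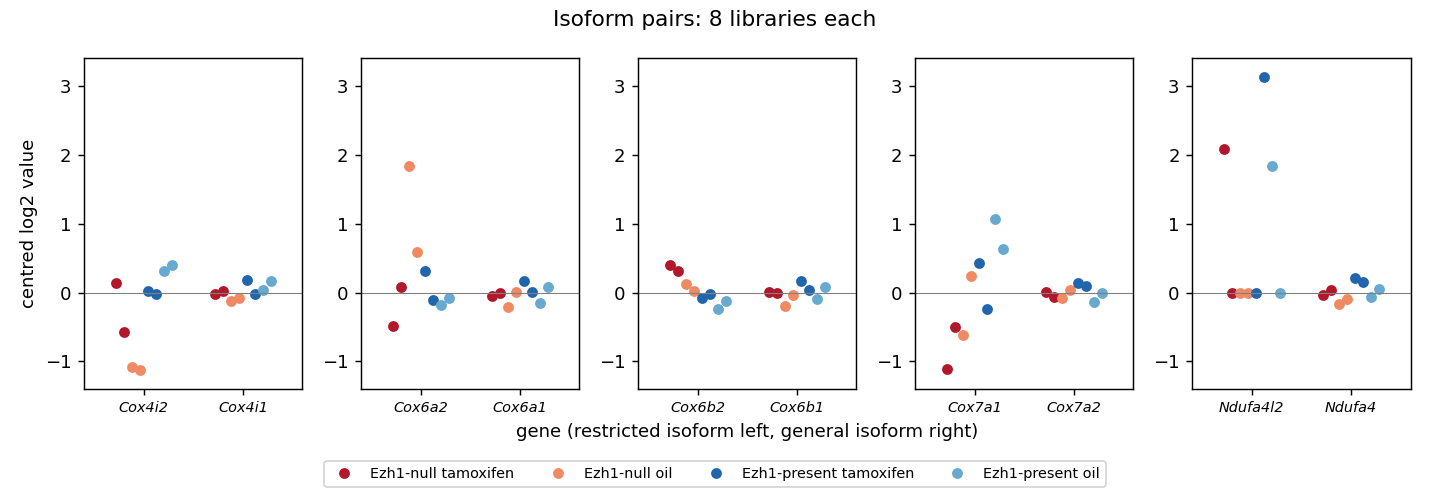
Centred log2 values in the 8 libraries (points, coloured by group) for the tissue-restricted isoforms Cox4i2, Cox6a2, Cox6b2 and Cox7a1 and the paralogue Ndufa4l2, each left of its general partner. The general isoforms lie between -0.22 and 0.22, whereas Cox4i2, Cox6a2, Cox7a1 and Ndufa4l2 spread over 1.52 to 3.14 log2 units.

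Related gene sets were read in the same fit. Of 22 other subunits and partners of the system listed, 9 were in the table, and the 13 subunits encoded in mitochondrial DNA are not analysed here. Usmg5, an ATP synthase membrane subunit, fell with Ezh1 loss in oil (-0.37 ± 0.08, adjusted p = 0.0282) and in tamoxifen (-0.42 ± 0.08, adjusted p = 0.0358 in limma). It was the 1 gene of the 9 called in each, where 12.4% and 5.44% of all genes were called lower. With tamoxifen against oil none of the 9 was called, where 0.903% of all genes were in Ezh1-present and 3.4% in Ezh1-null cells. Of 30 respiratory assembly factors tested, 2 rose and 4 fell with Ezh1 loss in oil, where 12.5% and 12.4% of all genes did, and 1 rose and 2 fell in tamoxifen, where 6.77% and 5.44% did. Tmem126a, a complex I assembly factor, fell in both (-0.75 ± 0.11, adjusted p = 0.00989 in oil; -0.81 ± 0.11, adjusted p = 0.0179 in tamoxifen), and Surf1, a complex IV assembly factor, rose in both (0.57 ± 0.09, adjusted p = 0.0106; 0.50 ± 0.09, adjusted p = 0.0285). None was called with tamoxifen in either genotype.

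Of 16 regulators of mitochondrial gene expression, Polg, the mitochondrial DNA polymerase, rose (0.63 ± 0.09, adjusted p = 0.00985 in limma) and Yy1 fell (-0.41 ± 0.10, adjusted p = 0.0345) with Ezh1 loss in oil, and none was called in the other comparisons. The coactivators Ppargc1a and Ppargc1b and the factors Nrf1, Gabpa, Esrra, Tfam and Myc were called in no comparison. Ppargc1b came nearest, with changes under tamoxifen of 0.48 ± 0.11 in Ezh1-null cells (adjusted p = 0.0930) and 0.49 ± 0.11 in Ezh1-present cells (adjusted p = 0.105). Of 18 genes of the tricarboxylic acid cycle and pyruvate dehydrogenase, Dlst rose (0.37) and Pdha1 fell (-0.51) with Ezh1 loss in oil, with none called elsewhere. Beside the calls in these 16 and 18 genes, 12.5% of all genes were called higher and 12.4% lower with Ezh1 loss in oil. Of 75 mitochondrial ribosome genes, 3 rose and 4 fell with Ezh1 loss in oil, fewer in proportion than the 24.9% of all genes called, and 5 fell in tamoxifen, against 5.44% of all genes.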

How the data were processed

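The authors deposited 2 tables exported from a gene-level analysis program; the larger, with 31574 genes, was used. Per the file headers the library values are normalized. In the deposited table they are log2 values with each gene's 8-library median subtracted and with a floor, so levels and read counts are removed, the depth is unknown, and no test on counts was made. The authors also deposited each tamoxifen change as an absolute ratio (fold) and as a signed fold score, with decreases written as negative inverse ratios; the signed value is copied where named. The build is mm10 per the submitters' processing notes; aligner, counter and strand setting: not given in the sources used here.

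A gene's floor was its minimum where 2 or more libraries shared it, within 2e-06. The 18051 genes with at least 2 libraries above it were fitted with limma 3.58.1 in R 4.3.3, using all 8 libraries, 1 coefficient per group, no block and empirical Bayes without a trend (residual degrees of freedom 4, prior 1.24). P-values were Benjamini-Hochberg adjusted over all 18051 genes, and a gene was called under 0.05. Changes are given ± the standard error, with 2 libraries per group. With 2 against 2 libraries the smallest exact permutation p is 0.333, so none is given.

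The genes and lists were chosen with earlier results of these data known. Genes are named where called, where they had the largest rise or fall of a comparison, or where they belong to an isoform set, with up to 3 called genes per related list; Ndufa5, Ndufaf1, Ndufv3, Ndufa1 and Atp5s, and the examples within complexes, were chosen after their values were seen. Alternatives were quantile scaling, library medians, floor filters, robust moderation, library weights, fewer groups, a replicate block and leaving out each library. Promoters are RefSeq's (GRCm38.p6); overlaps were read from GENCODE vM21.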

Additional observations from a re-analysis of the deposited data

How the results depend on the processing

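Over the alternatives run in limma, the median change of the 85 genes ran from 0.07 to 0.21 with tamoxifen in Ezh1-present cells and from -0.04 to 0.04 in Ezh1-null cells. With Ezh1 loss it ran from -0.02 to 0.11 in oil and from -0.17 to -0.06 in tamoxifen, and for the interaction from -0.22 to -0.07. In oil, the Ezh1 comparison called 6 genes, 2 with only its own groups fitted, 9 with genes above the floor throughout, 4 under quantile scaling, and 0 to 5 when a library was left out. In tamoxifen, its 1 call became 3 with genes above the floor throughout; it was 0 without a filter, with robust moderation, with only the groups compared, and without any 1 library. Under quantile scaling the 1 gene called was Ndufaf6 in place of Cox6c. In Ezh1-null cells, tamoxifen called 0 genes, and 0 to 1 when a library was left out (Cox4i2, without Ezh1-null tamoxifen replicate 2). The fitted tamoxifen change of Ndufa4l2 in Ezh1-present cells, which rests on libraries at the floor and is no fold, reversed, to -0.92 without tamoxifen replicate 2 and to -0.26 without oil replicate 2, and ran to 2.22 without tamoxifen replicate 1. The cause was not tested.

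Over all genes, tamoxifen called 163 in Ezh1-present cells, 0 with only those groups fitted, and 24 to 404 when a library was left out. It called 614 in Ezh1-null cells, 240 with only those groups, and 176 to 469 with a library left out. The Ezh1 comparisons called 4493 in oil and 2204 in tamoxifen, 2531 and 27 with only their groups, and 1707 to 4004 and 337 to 1323 with a library left out. The interaction called 86 genes, 37 under quantile scaling, 6 with genes above the floor throughout, and 17 to 98 with a library left out.

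With the replicate block, 4 OXPHOS genes were called in oil and 0 in the other comparisons, and over all genes 3749 in oil, 1179 in tamoxifen, 23 and 364 with tamoxifen in Ezh1-present and Ezh1-null cells, and 5 in the interaction. Deviations of libraries with the same number correlated between -0.091 and 0.124, so they shared no strong pattern over all genes. With groups of 2 this cannot show whether the numbers pair the samples, which the labels do not state. A variance trend was not run, since no level can be had. Unknown depth and groups of 2 limit all calls.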

Other observations

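The nearest 2 tested genes on each side of the 6 called OXPHOS genes were read after those calls were seen. With Ezh1 loss in oil, 7 of these 24 neighbours (29.2%) were called, against 24.9% of all genes. Lower were Ankrd12 (-0.88 ± 0.23, adjusted p = 0.0478 in limma) and Ddx11 (-0.56 ± 0.09, adjusted p = 0.0129) beside Ndufv2, Rgs22 (-1.99 ± 0.45, adjusted p = 0.0314) beside Cox6c and Cilp2 (-1.68 ± 0.39, adjusted p = 0.0335) beside Ndufa13. Higher were Tssk6 (0.68 ± 0.16, adjusted p = 0.0333 in limma) beside Ndufa13, Fam126b (0.72 ± 0.15, adjusted p = 0.0277) beside Ndufb3 and Id1 (1.31 ± 0.14, adjusted p = 0.00480) beside Cox4i2.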
